A study of Mus musculus with 16 samples.

Results

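Activity-induced immediate early genes are switched on within minutes of a stimulus, without new protein having to be made first. Calcium and ERK signals reach transcription factors such as CREB and SRF that already sit on their promoters, and the transcripts are short-lived. In the dorsal horn of the spinal cord, Fos has long served as a marker of neurons driven by noxious input. The group described here was chosen by gene symbol and held 10 of the 53465 genes in the count table. Fos, Fosb, Fosl2 and Junb encode subunits of the dimeric AP-1 transcription factor. Egr1, Egr2, Egr3 and Egr4 encode zinc finger transcription factors, Nr4a1 an orphan nuclear receptor, and Arc a postsynaptic protein that controls the removal of AMPA receptors from the membrane. The rule uses no measured value, but the group was drawn up with earlier results of these data known.

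Ribosome footprints (the stretches of mRNA protected by a bound ribosome) and poly(A)+ mRNA were sequenced from shared lysates of lumbar dorsal root ganglion (DRG) and dorsal spinal cord of C57BL/6J female mice. Spared nerve injury (SNI), in which 2 of the sciatic nerve's branches, tibial and common peroneal, are cut and the sural branch is kept, was bilateral and done at 8 weeks of age, and the tissue was taken 30 days later. The comparison group had sham surgery, and the labels name no genetic change in any group. Tissue, surgery and assay gave 8 groups with 2 replicates each, 16 libraries in all, and each replicate was by its label a pool of 10 mice, so n = 2 pools stands for every group.

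The mRNA libraries held 18176471 to 28553113 reads in genes and the footprint libraries 6898056 to 21613483. The sensory neuron marker list was higher in sham DRG than in sham cord for 12 of 12 genes, while 11 of 11 cord neuron, 10 of 10 oligodendrocyte and 9 of 9 astrocyte markers were lower, as the tissue labels say. Whole tissue was lysed, so fewer cells of a type and less RNA per cell cannot be told apart in any value below. The estimated coefficient of variation between replicate pools was 0.00988 to 0.0430 over the 10 fits. Between the replicates of a group, the mean chi-square over all genes was 1.06 to 1.07 in DRG mRNA, 1.34 to 1.78 in cord mRNA and 1.21 in cord footprints, and reached 2.64 in SNI and 3.31 in sham DRG footprints, where counting noise alone gives about 1. In the DRG mRNA and DRG TE fits the coefficient stood at the lowest value the estimate can take. The p-values measure only the spread between these pools.

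Levels are given as CPM, read counts scaled to a common library total, after TMM scaling for differences in library composition, and log2 changes are tested with edgeR's quasi-likelihood test. A gene was tested when it averaged at least 32 reads over the 4 libraries of an assay, and was called when its p, adjusted by the Benjamini-Hochberg method across every tested gene, was under 0.05. By this minimum, 8 of the 10 genes were tested in DRG mRNA, 8 in DRG footprints, 10 in cord mRNA and 7 in cord footprints. Fosb and Egr4 were under it in both DRG assays, and Fosb, Egr2 and Egr4 in cord footprints.

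**Figure D1:**
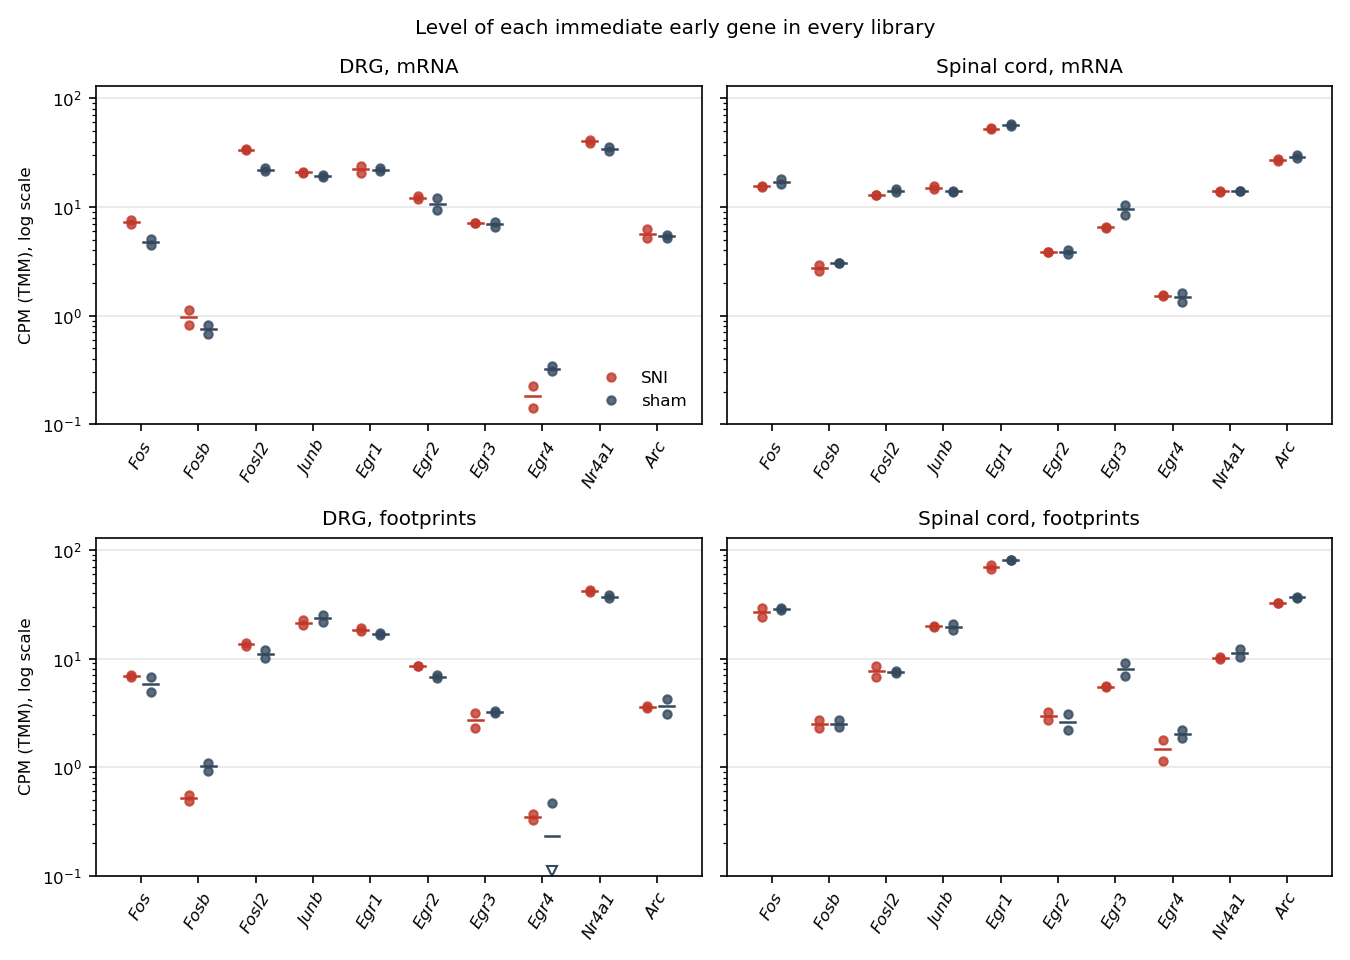
CPM of each gene (log axis) in every library, with mRNA above and footprints below, DRG on the left and spinal cord on the right. Points are single libraries, short lines are the means of 2 pools, SNI is left of sham, and an open triangle marks a library with 0 reads (Egr4, sham DRG footprints). In DRG mRNA both SNI points of Fos (7.02 and 7.56) lie above both sham points (4.45 and 5.05), and in cord mRNA both SNI points of Egr3 lie below both sham points. Levels of different genes are not per length here.

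The order of the genes differed between the tissues. Levels were divided by exonic length to set genes side by side within an assay. This length is fixed for each gene, and which of its transcripts were present was not measured, so the order depends on the annotation. The highest mRNA level in SNI DRG was that of Nr4a1, at 16.3 ± 0.645 CPM per kb, against 13.8 ± 0.810 in sham DRG (SD, n = 2). Junb followed at 9.10 in SNI and 8.35 in sham DRG, and Egr1 at 4.97 and 4.92 CPM per kb. Egr2 and Fosl2 overlapped in SNI DRG, at 3.59 ± 0.140 and 3.49 ± 0.0249 CPM per kb, whereas in sham DRG Egr2 stood above Fosl2 in both pools. Fos, Arc and Egr3 came next, between 1.58 and 3.10 CPM per kb in the 2 groups. Fosb and Egr4 closed the order in both groups, at 0.0855 to 0.156 CPM per kb.

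In the cord, Egr1 led with 11.8 ± 0.222 CPM per kb after SNI and 12.6 ± 0.280 after sham surgery (SD, n = 2). Arc was the next at 8.81 and 9.45, followed by Fos at 6.59 and 7.27 CPM per kb. Fos and Junb overlapped in SNI cord, where Junb had 6.53 ± 0.310 CPM per kb, and were apart in sham cord. Nr4a1, first in the DRG, came after Junb here with 5.62 CPM per kb after SNI and 5.69 after sham surgery. Egr3, Fosl2 and Egr2 lay between 1.14 and 2.15 CPM per kb, and Egr4 and Fosb between 0.439 and 0.707.

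After SNI, DRG mRNA rose for Fosl2, Fos and Nr4a1 and fell for none of the group. These 3 of 8 tested genes stand against 32.9% of all 14494 genes called in DRG mRNA, 15.9% higher and 17% lower, so the share called is near that of all genes. Over all genes 2308 were higher and 2467 lower, and with library sizes alone 3072 and 1781. The median log2 change of the 8 was 0.16, against 0.00028 over all genes tested.

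Fosl2 (chr5:32135801-32157842, GRCm38, plus strand) encodes an AP-1 subunit without the strong activation domain of Fos. Its mRNA was at 33.6 and 33.9 CPM in the SNI pools, against 21.3 and 22.7 CPM in the sham pools. The SNI pools lay above the sham pools with no overlap and by more than the difference within either group. The log2 change was 0.62 (SE 0.0569, 95% interval 0.50 to 0.73, adjusted p = 5.61e-11, edgeR).

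Fos (chr12:85473890-85477273, plus strand), the archetypal marker of recent neuronal activity, had 7.02 and 7.56 CPM of mRNA in SNI DRG and 4.45 and 5.05 CPM in sham DRG. Both SNI pools were again above both sham pools. Its log2 change was also 0.62, with a wider error from 542 reads over the 4 libraries (SE 0.135, 95% interval 0.34 to 0.89, adjusted p = 0.000423, edgeR). Over 9 alternative settings its log2 change ran between 0.52 and 0.71, with the adjusted p between 2.39e-05 and 0.0311.

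Nr4a1 (chromosome 15, plus strand) encodes a transcription factor that acts without a known ligand. Its mRNA was at 39.1 and 41.4 CPM in SNI DRG and 35.7 and 32.8 CPM in sham DRG, with no overlap. The log2 change of 0.22 (SE 0.0499, adjusted p = 0.000543, edgeR) was smaller than that of Fos and Fosl2 and was not called with DESeq2 (adjusted p = 0.0594).

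The promoters of the group were searched for motifs of factors that act upstream of it, a search made after Fos, Fosl2 and Nr4a1 were seen to rise in DRG mRNA. RefSeq start sites (GRCm38.p6, 250 bases before to 50 after the start, 27025 genes) matched 7 of the 10 genes, namely Fos, Fosb, Fosl2, Junb, Egr2, Egr4 and Nr4a1. TGACG, the short form of the site to which CREB binds, was sought on both strands (CGTCA on the other) and was within the window of 6 of the 7, all but Fosl2, against 23.0% of all genes. The full site TGACGTCA, which contains the short site, was in 0 of 7 against 2.03%, and the CArG box to which SRF binds was in Egr2 alone, against 1.81% of all genes. TATAA, sought on both strands, was in 4 of 7 against 28.0%. Egr2 has 5 listed starts, and a gene was counted when any of its windows held the letters. Sequence more than 250 bases before a start was not searched, and Egr1, Egr3 and Arc were not searched at all. A gene without a match, Fos for the CArG box among them, may therefore hold the motif outside its window. Leaving out matches too near a window's edge to show with their flanks, the short site occurs 2 times in Fos, 4 times in Nr4a1 and 2 times in Egr2. Counted likewise, Egr2 holds 2 CArG boxes in windows of different starts. Of the matches so counted, the windows below show the short site nearest the start in Fos, Nr4a1 and Egr2. Fos and Nr4a1 are the 2 genes that rose in the DRG and hold it. The CArG box beside the site shown for Egr2 is given too. The motif is in capitals, and the sequence is written 5′ to 3′ on the strand of the gene.
Fos, short site 66 bases before the start, chr12:85473814-85473838, plus strand: ttccgcccagTGACGtaggaagtcc
Nr4a1, short site 40 bases before the start, chr15:101266796-101266820, plus strand: cctctccatgCGTCAcggagcgctt
Egr2, short site 55 bases before the start, chr10:67537804-67537828, plus strand: tgggcagcgaCGTCAcgggtattga
Egr2, CArG box 72 bases before the start, chr10:67537787-67537816, plus strand: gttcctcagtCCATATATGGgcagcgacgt

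Fosl2 does not have the letters of the short site in its window. A match is a description of letters and no test of binding.

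The DRG mRNAs of the other 5 genes tested were not called. Junb, the AP-1 partner that can restrain Jun, had 21.1 and 20.8 CPM in SNI DRG and 18.9 and 19.6 CPM in sham DRG, a log2 change of 0.13 (95% interval -0.01 to 0.26). Egr1 had 20.6 and 23.9 CPM in SNI DRG and 21.4 and 22.7 CPM in sham DRG, a log2 change of 0.00 (95% interval -0.14 to 0.14). The Egr1 pools overlapped. Egr2, which myelinating Schwann cells also need, had 12.5 and 11.9 CPM in SNI DRG and 9.45 and 12.02 CPM in sham DRG. Its log2 change was 0.20 (adjusted p = 0.144, edgeR), and without the second sham pool 0.37 (adjusted p = 0.0197). Egr3, which shares its binding site with Egr1, changed by 0.04 and Arc by 0.07 on the log2 scale, with 95% intervals of -0.21 to 0.29 and -0.21 to 0.36.

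Of the 8, the SNI and sham pools did not overlap for 4 (Fos, Fosl2, Junb and Nr4a1, all higher after SNI), against 64.4% of all genes with the same minimum of reads. Fosb mRNA was at 1.13 and 0.814 CPM in SNI DRG and 0.818 and 0.681 CPM in sham DRG, from 78 reads in all. Egr4 had 0.141 and 0.226 CPM in SNI DRG and 0.307 and 0.340 CPM in sham DRG, from 21 reads. A fit without the minimum gave them log2 changes of 0.40 (SE 0.319) and -0.82 (SE 0.705), neither called (adjusted p = 0.637 for both, edgeR).

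**Figure D2:**
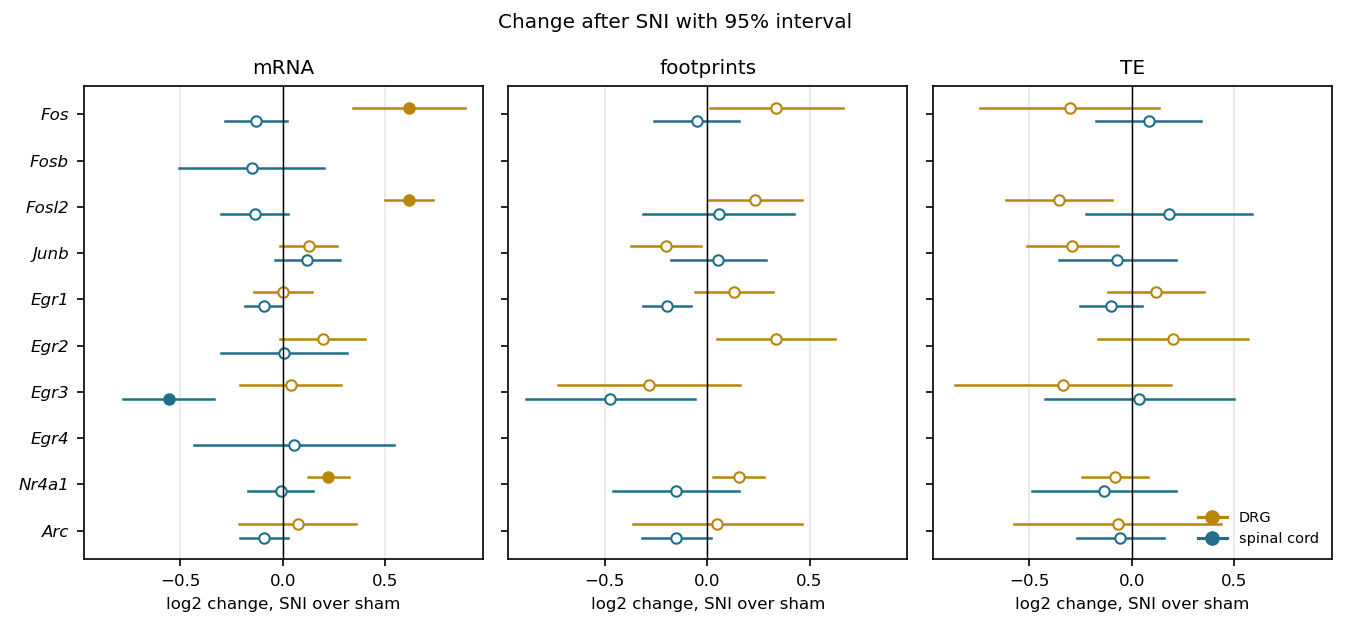
Log2 change after SNI (x axis, SNI over sham) of each gene for mRNA, footprints and translational efficiency (TE), with 95% intervals from the edgeR fits, DRG above spinal cord in each pair. Filled points were called at an adjusted p under 0.05, and genes under the minimum of reads have no point. The filled points are Fos, Fosl2 and Nr4a1 in DRG mRNA and Egr3 in cord mRNA.

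In DRG footprints, 0 of 8 tested genes were called, against 16.7% of all 13038 genes, 8.4% higher and 8.28% lower (1095 and 1080 genes, and 1354 and 829 with library sizes alone). Unadjusted p was under 0.05 for 5 of the 8, and DESeq2 called 0. Fos footprints were at 7.09 and 6.76 CPM in SNI DRG and 6.73 and 4.89 CPM in sham DRG, so the lower SNI pool was only just above the higher sham pool. The log2 change was 0.34 (95% interval 0.01 to 0.66, adjusted p = 0.159, edgeR). It was 0.03 without the second sham pool.

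Fosl2 footprints were at 13.9 and 13.1 CPM in SNI DRG and 10.0 and 11.98 CPM in sham DRG. The pools did not overlap, and the log2 change was 0.23 (95% interval 0.00 to 0.46, adjusted p = 0.174, edgeR), less than the 0.62 of its mRNA. Egr2 footprints were at 8.48 and 8.53 CPM in SNI DRG and 7.01 and 6.63 CPM in sham DRG, a log2 change of 0.34 (adjusted p = 0.107). Nr4a1 had 43.0 and 40.7 CPM in SNI DRG and 35.8 and 38.1 CPM in sham DRG, a change of 0.15 (adjusted p = 0.0776), called with library sizes alone (0.18, adjusted p = 0.0372). Egr1, at 18.0 and 19.0 CPM in SNI DRG and 16.3 and 17.3 CPM in sham DRG, also had its pools apart with SNI on top, at a log2 change of 0.13. These 5 of 8 tested genes with pools apart stand against 53.2% of all genes.

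Junb footprints did not follow its mRNA in direction. They were at 22.7 and 20.1 CPM in SNI DRG and 21.8 and 25.4 CPM in sham DRG, and the pools overlapped. The log2 change was -0.20 (95% interval -0.37 to -0.03, adjusted p = 0.0986, edgeR), and -0.27 (adjusted p = 0.0328) without the first sham pool. Exons of Junb overlap those of Prdx2, an antioxidant enzyme gene, and the sequencing did not keep the strand, so reads in the overlap cannot be told apart. Egr3 (-0.28) and Arc (0.05) had intervals that spanned 0. Among the genes under the minimum, Fosb footprints were at 0.489 and 0.559 CPM in SNI DRG and 1.099 and 0.931 CPM in sham DRG, from 42 reads. Egr4 had 0.326 and 0.373 CPM in SNI DRG and 0 and 0.465 CPM in sham DRG, where 0 reads allow up to 0.412 CPM (3 reads, counting error only).

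TE, the footprint level over the mRNA level of one lysate, was called for 0 of 8 genes in the DRG, against 7.43% of all 12710 genes, 4.22% higher and 3.21% lower. Unadjusted p was under 0.05 for 2, Fosl2 and Junb, and DESeq2 called 0. The log2 TE of Fosl2 was -1.27 and -1.37 in SNI DRG and -1.08 and -0.92 in sham DRG, lower in both SNI lysates. Its change was -0.36 (95% interval -0.61 to -0.09, adjusted p = 0.0799, edgeR). Junb had log2 TE of 0.10 and -0.04 in SNI DRG and 0.21 and 0.37 in sham DRG, a change of -0.29 (adjusted p = 0.101). For Fos, one sham lysate at 0.60 stood apart from the other at -0.05 and from the SNI lysates at 0.02 and -0.16, and the change of -0.30 had an interval of -0.74 to 0.14.

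The transcripts differed widely in TE. Among the 12710 genes, Fosl2 stood at percentile 11.1 of log2 TE in SNI DRG and 18.3 in sham DRG, and Egr3 at 9.75 and 16.1. Fos stood at percentile 55.5 in SNI DRG and 70.8 in sham DRG, and Junb at 59.8 and 71.5. In the cord, Fos reached percentile 89.2 of 11865 genes after SNI and 87.0 after sham surgery, Egr1 76.5 and 80.1, and Fosl2 23.4 and 17.8. By this ratio Fosl2 was low and Fos at or above the middle in all 4 groups. The ratio uses all reads of a gene. The paper reports footprints mostly in coding sequence, and mRNA reads also in the untranslated regions. A rank between genes therefore cannot be told apart from the coding share of the transcript, which was not measured. Exonic length was 9680 bases for Fosl2 and 2352 for Fos.

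**Figure D3:**
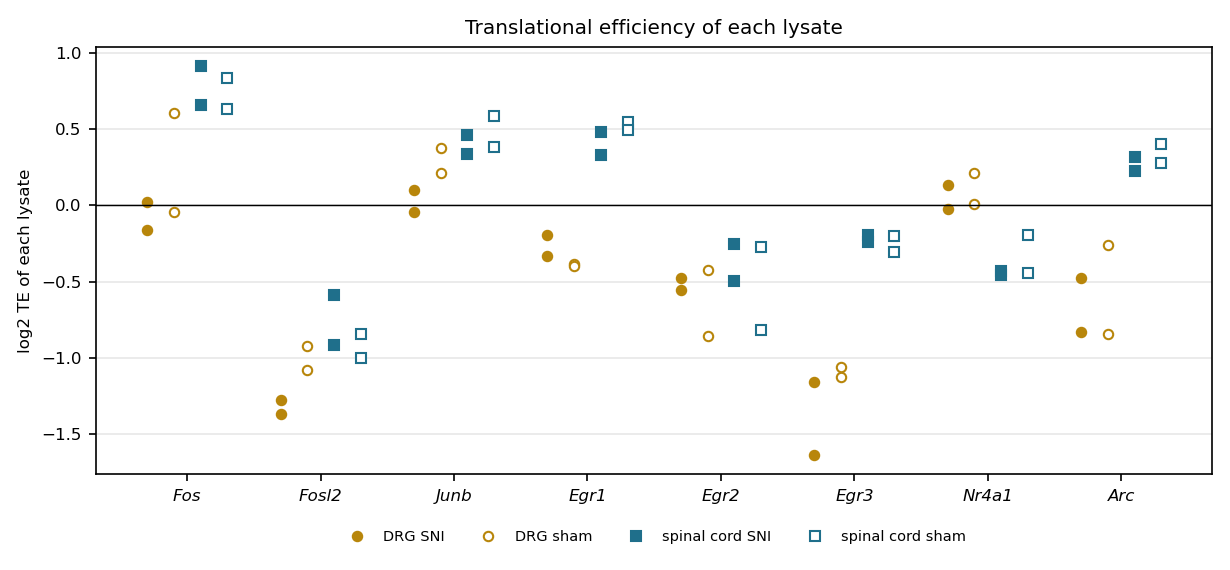
Log2 TE (footprint CPM over mRNA CPM, with 0.5 reads added to each count) of each lysate, for the 8 genes with enough reads in the DRG. Egr2 was under the minimum of reads in cord footprints. Circles are DRG and squares spinal cord, filled for SNI and open for sham, with 2 lysates per group. Egr1, Egr3 and Arc are lower in all 4 DRG lysates than in all 4 cord lysates, and Nr4a1 is higher. Fos is lower too, by a narrow margin (highest DRG lysate 0.60, lowest cord lysate 0.63). The share of all genes with lysates apart in this way was not counted. In sham TE, 43% of all 12504 genes were called between these tissues.

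Other inducible transcription factor genes in the DRG were described from a list of 20. Of 16 tested in mRNA, 8 were higher after SNI and 0 lower, with a median log2 change of 0.24. Atf3, a stress-induced bZIP factor known from injured sensory neurons, had 105 and 101 CPM in SNI DRG and 13.3 and 14.7 CPM in sham DRG, a log2 change of 2.88 (adjusted p = 5.13e-33, edgeR). Jun, the main AP-1 partner of Fos, had 189 and 184 CPM in SNI DRG and 147 and 146 CPM in sham DRG, a change of 0.35 (adjusted p = 4.08e-13). Per1, a clock gene with CREB sites, changed by 0.51 and Klf6 by 0.22 on the log2 scale. In footprints 5 of 16 were higher and 0 lower, and Atf3 (2.76), Jun (0.28), Per1 (0.46) and Klf6 (0.30) again had the smallest adjusted p. Some of these genes were known from earlier results of these data to respond.

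The counts of this and the next lists stand against the 15.9% higher and 17% lower of all genes in DRG mRNA given above, and several are near them. Of 15 tested upstream transcription factor genes, 6 were higher and 1 lower in mRNA, with a median log2 change of 0.07. Elk3 (0.37) and Elk4 (0.13), which bind DNA beside SRF, and the CREB coactivator Crtc1 (0.15) and the CREB relative Crem (0.32) had the smallest adjusted p. Of 16 genes of the ERK cascade and its feedback, 5 were higher and 3 lower, among them Mapk3 (0.07), which encodes the kinase ERK1, higher. Of 6 tested partners, the Egr corepressors Nab2 (0.33) and Nab1 (-0.15) moved apart, and Maf fell by 0.18 on the log2 scale.

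Activity-regulated effector genes split, with 3 of 19 higher and 7 lower in DRG mRNA and a median log2 change of -0.0016. Vgf, a secreted neuropeptide precursor, rose by 0.67 and Gadd45g by 0.48, whereas Nrn1 fell by 0.28 and Pcsk1, a prohormone convertase, fell by 0.22 on the log2 scale. Of 10 heat shock genes, 7 were lower and 0 higher in DRG mRNA, led by Hsph1 (-0.25), Hsp90aa1 (-0.28), Hspa8 (-0.22) and Hspd1 (-0.26). Their summed mRNA level was 989 to 998 CPM in SNI DRG and 1142 to 1162 CPM in sham DRG. Their part in the changes of the immediate early genes was not tested.

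**Figure D4:**
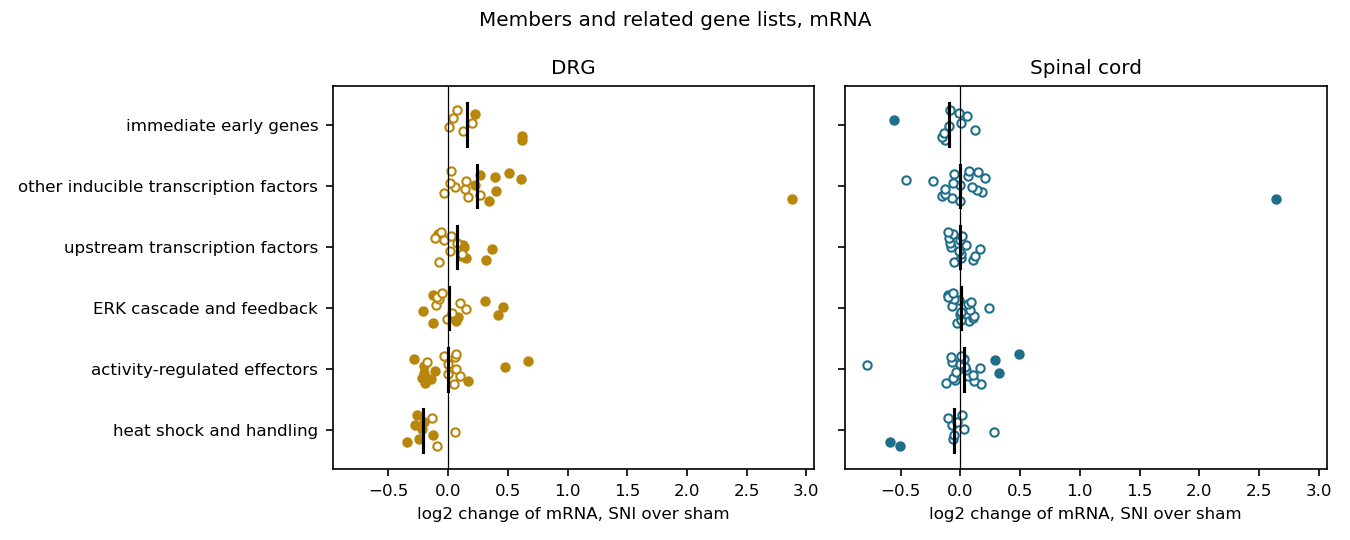
Log2 change of mRNA after SNI (x axis, SNI over sham) for the immediate early genes and 5 related lists, in DRG and spinal cord. Each point is a gene, filled where called, and black bars are list medians. The point far to the right in both panels is Atf3, at 2.88 in the DRG and 2.65 in the cord.

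Markers of other cells moved in the same DRG libraries, and sums are given over each whole list, and without the genes that make up most of a sum where those were seen to dominate it. Of 10 skeletal muscle markers 9 were higher after SNI (Ckm by 1.82 on the log2 scale) and Pvalb, which sensory neurons also express, was lower. The summed level of the list was 257 to 258 CPM in SNI and 242 to 243 CPM in sham DRG, and without Pvalb 145 CPM in both SNI pools and 52.1 to 55.1 CPM in sham DRG. Of 10 microglia and macrophage markers 6 were higher and 0 lower, with a sum of 253 to 255 CPM in SNI and 211 to 216 CPM in sham DRG. Of 8 endothelial markers 4 were higher and 0 lower (185 to 189 against 169 CPM in sham DRG).

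Cord markers were lower instead. Of 7 tested cord neuron markers 5 fell, with a sum of 1505 to 1517 CPM in SNI and 2177 to 2217 CPM in sham DRG. Snap25, which sensory neurons also express, made up nearly all of it, and the other 11 genes summed to 17.1 to 17.5 CPM in SNI and 26.6 to 29.9 CPM in sham DRG. Of 7 tested oligodendrocyte markers 4 fell and 1 rose, with a sum of 113 to 117 CPM in SNI and 139 to 143 CPM in sham DRG. Without Sox10 and Mag, which Schwann cells also express, the other 8 genes summed to 9.23 to 10.8 CPM in SNI and 37.8 to 39.8 CPM in sham DRG. The myelin gene Mobp was at 3.42 and 2.62 CPM in SNI DRG, against 21.5 and 21.2 CPM in sham DRG. None of these markers was at 0 in the mRNA libraries of either group. Whether any of these cells took part in the changes of Fos, Fosl2 or Nr4a1 was not tested.

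In cord mRNA, Egr3 fell after SNI and no other gene of the group was called, 1 of 10 tested against 4.05% of all 14723 genes, 2.09% higher and 1.96% lower. Egr3 (chr14:70077203-70082614, plus strand) had 6.56 and 6.399 CPM in SNI cord and 10.5 and 8.51 CPM in sham cord. The SNI pools were close together and both below the sham pools, which lay apart from each other. The log2 change was -0.56 (SE 0.111, 95% interval -0.78 to -0.33, adjusted p = 0.000786, edgeR). The call was lost with DESeq2 (adjusted p = 0.315) and without the first sham pool, where the change was -0.39 (adjusted p = 0.149).

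The pools of the 2 groups did not overlap for 7 of the 10 genes in cord mRNA, 6 lower and 1 higher after SNI, against 46.3% of all genes. Egr1 had 53.5 and 52.1 CPM in SNI cord and 55.8 and 57.5 CPM in sham cord, a log2 change of -0.09 (95% interval -0.18 to -0.0046, adjusted p = 0.262, edgeR). Fos had 15.7 and 15.4 CPM in SNI cord and 16.3 and 17.9 CPM in sham cord, a change of -0.13 (95% interval -0.28 to 0.02). Arc had 27.5 and 26.3 CPM in SNI cord and 28.0 and 29.8 CPM in sham cord, a change of -0.09 (95% interval -0.21 to 0.03). For these 3 genes the intervals leave out a cord increase larger than 0.03 on the log2 scale.

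Of the remaining cord mRNAs, Fosl2 (-0.14), Fosb (-0.15), Nr4a1 (-0.01), Egr2 (0.01), Egr4 (0.05) and Junb (0.12) were not called. Nr4a1 had 13.8 and 14.0 CPM in SNI cord and 14.1 and 14.0 CPM in sham cord, a difference of the size of that between replicates. Egr4, read only 145 times over the 4 libraries, had the widest interval, -0.43 to 0.54. Among other inducible transcription factor genes, 1 of 18 tested was higher in cord mRNA and 0 lower, namely Atf3, with 8.55 and 7.81 CPM in SNI cord and 1.27 and 1.36 CPM in sham cord. Npas4, which is induced by neuronal activity with little response to other signals, had 4.32 and 4.94 CPM in SNI cord and 5.55 and 4.52 CPM in sham cord, a log2 change of -0.13 that was not called.

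Activity-regulated effectors in cord mRNA were higher for 3 of 20 genes and lower for 0. Sgk1, a kinase gene induced by serum and glucocorticoids, had 139 and 140 CPM in SNI cord and 101 and 97.8 CPM in sham cord, a log2 change of 0.49 (adjusted p = 1.8e-18, edgeR). Vgf rose by 0.29 and Arl4d by 0.32 on the log2 scale. The heat shock genes Hspa1a (-0.51) and Hspa1b (-0.59), near-identical copies whose reads cannot be assigned with certainty, were lower. In the same cord libraries, 4 of 6 tested motor neuron markers were lower (summed mRNA level 93.6 to 99.5 CPM in SNI and 129 to 130 CPM in sham cord) and 6 of 10 microglia and macrophage markers higher (402 to 411 against 330 to 332 CPM in sham cord). Their part in the Egr3 value was not tested.

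In cord footprints, 0 of 7 tested genes were called, against 2.24% of all 12018 genes, 1.21% higher and 1.03% lower. Unadjusted p was under 0.05 for 2, Egr1 and Egr3, and DESeq2 called 0. Egr1 footprints were at 67.2 and 72.7 CPM in SNI cord and 81.2 and 81.0 CPM in sham cord, with both SNI pools lower. The log2 change was -0.20 (SE 0.0568, 95% interval -0.31 to -0.08, adjusted p = 0.0743, edgeR), and -0.25 (adjusted p = 0.0331) without the second SNI pool. Egr3 had 5.50 and 5.53 CPM in SNI cord and 9.07 and 6.86 CPM in sham cord, a change of -0.47 (95% interval -0.88 to -0.06, adjusted p = 0.28). Its direction was that of its mRNA.

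Arc footprints were at 32.1 and 32.8 CPM in SNI cord and 37.0 and 36.2 CPM in sham cord, a log2 change of -0.15 (95% interval -0.32 to 0.02). Fos (-0.05), Fosl2 (0.06), Junb (0.06) and Nr4a1 (-0.15) had overlapping pools. The pools did not overlap for 3 of the 7 tested genes (Egr1, Egr3 and Arc, all lower after SNI), against 44.7% of all genes. TE in the cord was called for 0 of 7 genes, against 0.253% of all 11865 (0.169% higher and 0.0843% lower), with 0 at an unadjusted p under 0.05 and 0 by DESeq2. The log2 TE changes lay between -0.14 for Nr4a1 and 0.18 for Fosl2.

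The response to SNI was compared between the tissues as the log2 change in the DRG minus that in the cord, tested as an interaction. In mRNA, 3 of 8 genes had a higher response in the DRG and 0 a lower one, against 17.3% of all 13557 genes, 8.4% higher and 8.91% lower. The difference was 0.76 for Fosl2 (SE 0.101, adjusted p = 1.03e-07, edgeR), 0.75 for Fos (SE 0.148, adjusted p = 0.000151) and 0.61 for Egr3 (SE 0.163, adjusted p = 0.00604). For Fosl2 and Fos it combined a rise in the DRG with uncalled negative values in the cord (-0.14 and -0.13). For Egr3 it came from the cord, since its DRG value was 0.04. That difference was lost with DESeq2 (adjusted p = 0.144) and without the first sham cord pool (0.43, adjusted p = 0.11).

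Nr4a1 differed by 0.24 (adjusted p = 0.0716, edgeR), and was called with library sizes alone (0.26, adjusted p = 0.0496) and without the first sham DRG pool (0.31, adjusted p = 0.047). Junb differed by 0.02 (95% interval -0.19 to 0.22). In footprints, 0 of 7 genes were called, against 8.69% of all 11510 (4.04% higher and 4.65% lower, 465 and 535 genes, and 571 and 416 with library sizes alone), with 2 at an unadjusted p under 0.05 (Fos and Egr1) and 0 by DESeq2. The footprint difference of Fos was 0.38 (95% interval 0.00 to 0.77, adjusted p = 0.244), and that of Egr1 was 0.32 (adjusted p = 0.0598), with a range of 0.0287 to 0.449 in adjusted p over 13 alternatives.

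Averaged over the 10 genes, log2 mRNA levels centred within each tissue were 0.03 and 0.11 in SNI DRG against -0.10 and -0.05 in sham DRG, and -0.05 and -0.05 in SNI cord against 0.05 and 0.06 in sham cord. Over the 8 mRNA libraries, Pearson r to this mean was highest for Fos (0.91) and Fosl2 (0.87), and negative for Egr4 (-0.50). Each gene is itself part of the mean, so genes with larger changes weigh more in it and these r are no independent measure. Fosb and Egr4 entered the mean with only 78 and 21 DRG mRNA reads. Outside the group, the genes with the highest Pearson r to the mean among 13549 were Cnot6 (0.992), Vtn (0.991), Asic2 (0.983), Notch3 (0.979) and Erlin1 (0.974). These values describe 8 libraries of 2 tissues and were chosen as the highest, so no p is given.

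Between the tissues, sham DRG and sham cord differed in mRNA for 9 of 9 tested genes, 4 higher and 5 lower in the DRG, where 83.7% of all 14706 genes were called, 41.4% higher and 42.3% lower. The comparison shares its sham libraries with those above. Arc (chr15:74669083-74672570, minus strand) had 5.16 and 5.56 CPM in sham DRG and 28.0 and 29.8 CPM in sham cord, a log2 difference of -2.42 (SE 0.0920, adjusted p = 2.23e-25, edgeR). Fos differed by -1.83, while Egr1 had 21.4 and 22.7 CPM in sham DRG and 55.8 and 57.5 CPM in sham cord, a difference of -1.35. Fosb differed by -2.001, from 16 and 12 reads in sham DRG and 84 and 70 in sham cord. It met the minimum, here summed over both tissues, only through its cord reads. Egr3 was lower by a smaller margin (-0.45, adjusted p = 0.00071), and without the first sham cord pool this was -0.28 (adjusted p = 0.0729).

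The genes that were higher in sham DRG were Egr2 (1.48), Nr4a1 (1.30), Fosl2 (0.64) and Junb (0.48). Egr2 had 9.45 and 12.02 CPM in sham DRG and 3.99 and 3.73 CPM in sham cord. Of the Schwann cell marker list, to which Egr2 itself belongs, 7 of 9 tested genes were higher in sham DRG. The summed mRNA level of the whole list went the other way, at 4188 to 4217 CPM in sham DRG and 8492 to 8673 CPM in sham cord. The part of Schwann cells in the Egr2 value was not tested. Nr4a1 had 35.7 and 32.8 CPM in sham DRG and 14.1 and 14.0 CPM in sham cord. Fos, Fosb, Egr1, Egr3 and Arc were thus on the cord side. A split of this kind is near that of all genes, 41.4% higher and 42.3% lower.

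**Figure D5:**
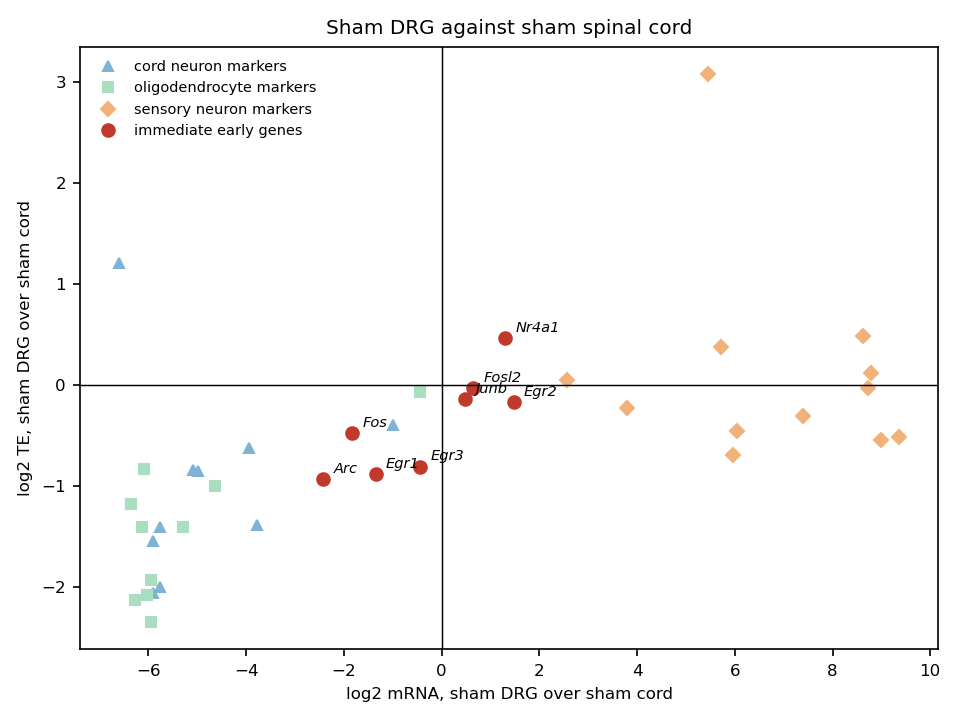
Log2 difference of mRNA (x axis) and of TE (y axis), sham DRG over sham spinal cord, for the 8 immediate early genes tested in both and for 3 marker lists. Nr4a1 is the one immediate early gene above 0 on both axes, and Arc, Egr1, Egr3 and Fos are below 0 on both.

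TE also differed between the sham tissues, with 1 of 8 genes higher and 4 lower in the DRG, against 43% of all 12504 genes called, 20.4% higher and 22.6% lower. Egr1 had log2 TE of -0.38 and -0.40 in sham DRG and 0.54 and 0.49 in sham cord, a difference of -0.88 (SE 0.104, adjusted p = 4.8e-15, edgeR). Egr1 was apart by far more than its spread, and over 9 alternatives its adjusted p was at most 4.65e-06. Arc had -0.26 and -0.84 in sham DRG and 0.40 and 0.28 in sham cord, a difference of -0.93 (adjusted p = 3.06e-05), and -0.59 (adjusted p = 0.126) without the second sham DRG lysate. Egr3 had -1.12 and -1.06 in sham DRG and -0.20 and -0.30 in sham cord, a difference of -0.81 (adjusted p = 0.00326; with DESeq2 0.135).

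Fos differed by -0.48 in TE (adjusted p = 0.0381, edgeR). Its call was lost with DESeq2 (adjusted p = 0.351), with no minimum of reads (0.278), without the second sham DRG lysate (difference -0.10, adjusted p = 0.828) and without the first sham cord lysate (-0.38, adjusted p = 0.171). Nr4a1 was higher by 0.46 (adjusted p = 0.00216), with log2 TE of 0.01 and 0.21 in sham DRG and -0.44 and -0.19 in sham cord. Its call was lost with DESeq2 (adjusted p = 0.169), without the second sham DRG lysate (0.34, adjusted p = 0.129) and without the first sham cord lysate (0.36, adjusted p = 0.0727). Fosl2 (-0.03), Junb (-0.14) and Egr2 (-0.17) were not called. Egr2 footprints had 51 and 114 reads in sham DRG and 16 and 33 in sham cord. Egr2 thus met the minimum, here summed over both tissues, only through its DRG reads.

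In the same comparison, 9 of 10 oligodendrocyte, 6 of 10 cord neuron and 9 of 9 astrocyte markers had lower TE in sham DRG. The median log2 differences were -1.40, -1.11 and -0.58. The minimum of reads was summed over both tissues, so markers with few DRG reads could pass it through the cord. In sham DRG footprints Opalin was at 0.156 CPM, Olig2 at 0.225 and Lbx1 at 0.381, whereas the astrocyte marker Gja1 was at 62.3. For such low markers the DRG side of TE rests on few reads. In sham DRG mRNA, oligodendrocyte markers were at a median of 1.56% of their sham cord level, with the highest at 72.5%, and in footprints at 0.492%. Mog, a protein of central myelin, was at 1.28% in mRNA and 0.326% in footprints. The 9 astrocyte markers were at a median of 3.70% in mRNA and 2.68% in footprints, with the highest at 19.6% and 16.2%. For 11 cord neuron markers the median in mRNA was 2.46%, with the highest, Snap25, at 49.8%. Arc, the lowest of the tested immediate early genes, was at 18.5% of its sham cord level in mRNA and 10.0% in footprints. Egr1 was at 38.9% and 20.7%. The part of cord RNA in the TE values was not tested.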

How the data were processed

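The authors used Bowtie 1.1.2 to discard reads of rRNA and tRNA, mapped the rest with STAR 2.5.2b to GRCm38.p5 and deposited read counts per gene from HTSeq (version not given in the sources used here). The deposited RPKM values were used only to recover the gene length behind them, and the deposited TE, a ratio of footprint over mRNA RPKM, was not used. For Fos that length was 84 bases, against 2352 exonic bases, so levels between genes were computed from counts and exonic lengths. The exonic lengths were those deposited with the counts, and gene coordinates and exon overlaps came from GENCODE M21.

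Counts were tested with edgeR 4.0.16 in R 4.3.3 (TMM within each assay, library sizes from column sums, quasi-likelihood test), with genes that averaged at least 32 reads over the 4 libraries of an assay. TE was the interaction of assay and surgery (or tissue) with a term per lysate. Log2 TE per lysate used 0.5 reads added to each count. Alternatives were DESeq2 1.42.0 without independent filtering, library sizes alone, no minimum, robust empirical Bayes, a replicate block, leaving out each lysate and 1 read added for log2 TE. Tests were tried on simulated data. Tables and figures were made with Python 3.11.15, pandas 2.3.3 and matplotlib 3.10.9.

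The genes and all lists were chosen with earlier results of these data known. From each list, counts and up to 4 genes with the smallest adjusted p in that comparison are named, plus defining markers, and the 5 genes most like the group mean. Npas4 was named outside this rule, after its values were seen.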

Additional observations from a re-analysis of the deposited data

Results flagged for a closer look

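The mRNA response to SNI differed between the tissues for 3 of 8 tested genes of the group, by the interaction of tissue and surgery in edgeR. Of all 13557 genes, 17.3% were called in this test. The DRG response minus the cord response was 0.75 on the log2 scale for Fos, 0.76 for Fosl2 and 0.61 for Egr3. For Fos and Fosl2 both SNI pools were above both sham pools in the DRG and below both in the cord. Pools lay apart in either direction for 64.4% of all genes in DRG mRNA and 46.3% in cord mRNA. For Egr3 the pools overlapped in the DRG, and its first sham cord pool, at 10.5 CPM, was farther from the SNI pools than the second, at 8.51 CPM. The Egr3 difference was not called with DESeq2 (adjusted p = 0.144) and was 0.43 without that first sham cord pool.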

How the results depend on the processing

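Over 780 alternative values for 80 tested results, 751 stayed on their side of the threshold, 15 lost a call, 14 gained one and 0 changed sign as called values. Uncalled values near 0, such as that of Egr1 in DRG mRNA, did change sign. In DRG footprints, library sizes alone called 1 gene higher (Nr4a1) in place of 0. In cord mRNA, DESeq2 called 0 lower in place of 1 (Egr3). In sham TE between the tissues, DESeq2 called 0 higher and 2 lower (Egr1 and Arc) in place of 1 and 4. In the footprint response, library sizes alone, no minimum, robust empirical Bayes and the replicate block each called 1 gene higher (Egr1) in place of 0. Leaving out each lysate gave 0 to 1 lower in DRG footprints (1 without the first sham DRG lysate), 0 to 1 lower in cord mRNA (0 without the first sham cord lysate), 0 to 1 lower in cord footprints and 0 to 1 higher in the footprint response (1 without the second SNI cord lysate in both). In sham TE it gave 0 to 1 higher (0 without the second sham DRG or the first sham cord lysate) and 2 to 4 lower (2 without the second sham DRG lysate). The cause of these changes was not tested. With 1 read added instead of 0.5, 40 of 40 mean log2 TE values moved by less than the spread between lysates.

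The labels tie the replicate numbers to no shared batch, and the check of pairing did not settle it. The correlations between deviations of same-numbered SNI and sham libraries were 0.05 in DRG mRNA, 0.19 in DRG footprints, 0.00 in cord mRNA and -0.03 in cord footprints, from 2 pairs each, and for mRNA and footprint libraries of 1 lysate, which are known pairs, the same check gave -0.01 to -0.00068. With the replicate block, 2 genes were called lower in DRG TE (Fosl2 -0.38 and Junb -0.33, adjusted p = 0.0423 and 0.0402, edgeR) and 1 lower in cord footprints (Egr1, adjusted p = 0.0383). Beside these and Egr1 in the footprint response, the block changed no call of the group.

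Counts over all genes, higher and lower, moved more. With DESeq2 they were 928 and 1176 in DRG mRNA (2308 and 2467 with edgeR), 349 and 376 in DRG footprints (1095 and 1080), 56 and 30 in DRG TE (536 and 408), 39 and 18 in cord mRNA (308 and 289), 67 and 24 in cord footprints (145 and 124), 11 and 2 in cord TE (20 and 10), 961 and 1409 in sham TE (2552 and 2824), 375 and 557 in the mRNA response (1139 and 1208) and 156 and 180 in the footprint response (465 and 535). With the block they were 494 and 511 in cord mRNA and 196 and 204 in cord footprints. With no minimum they were 316 and 345 in DRG TE, 218 and 190 in cord footprints, 2996 and 1638 in sham TE and 652 and 346 in the footprint response. With robust empirical Bayes, cord TE had 21 and 6. Leaving out 1 lysate gave as few as 79 and 59 calls in cord mRNA (without the second SNI lysate) and as many as 504 and 526 (without the second sham lysate), and as few as 213 higher calls in DRG TE (without the second SNI lysate).

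With 2 pools per group, p-values rest on the spread between them, which was near counting noise in DRG mRNA and above it in DRG footprints (mean chi-square over all genes 2.64 and 3.31). Fosb and Egr4 in the DRG had 78 and 21 mRNA reads in all, and the SE of their log2 changes without the minimum were 0.319 and 0.705.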
